A study of Mus musculus with 12 samples.

Results

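In mammalian DNA, cytosines that precede a guanine (CpG sites) can carry a methyl group, and stretches where CpGs lie close together, called CpG islands, are mostly unmethylated and often surround the start sites of genes. Reduced representation bisulfite sequencing (RRBS) cuts DNA at CCGG and reads the ends of the fragments, so CpG-rich stretches yield several measured sites in the same read. Described here are the CpG sites of the RRBS count table that are densely clustered, defined as autosomal sites with at least 5 other sites of the table on the same chromosome within 50 bp, on either strand. Of 13917 autosomal sites in a table of 14149, 505 met this definition.

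Sperm of 4 origins were compared: the testis, and then the caput, the corpus and the cauda, which are the successive segments of the epididymis, the duct in which sperm mature. There were 3 samples per origin and 12 in all. All came from untreated mice aged 10 to 12 weeks of the B6D2F1 background that carried the transgenes CAG/su9-DsRed2 and Acr3-EGFP (line RBGS002Osb), so all 4 groups shared both fluorescent transgenes and none was a wild-type control. Cells were sorted for EGFP and DsRed fluorescence, cauda spermatozoa were first perfused from the duct, and samples were obtained from pooled mice. The study describes its RRBS results as coming from independent experiments, while the labels do not assign a pool to each replicate. The p-values of tests that use the replicates therefore refer to the spread between these samples. Those of tests on pooled reads do not use that spread. The first caput replicate stood apart from the other caput samples over the remaining autosomal sites, where its mean absolute difference from them was 12.8 and 13.5 points, against 8.17 points between caput replicates 2 and 3. At the dense sites the same differences were 4.69, 6.12 and 4.94 points.

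The dense sites formed 69 loci, which are chains of table sites with gaps of at most 50 bp, on 19 chromosomes. A locus held 6 to 21 table sites, with a median of 7, and spanned 19 to 138 bp. In 60 loci all sites lay on 1 strand, and 9 loci held sites of both strands. The dense loci lay close to genes: 58 of 69 (84.1%) were within 2 kb of an annotated start site, against 37.4% of all 8809 autosomal loci, and their median distance to a start site was 181 bp against 5190 bp. Another 7 were in exons, 2 in introns and 2 between genes. A window around the middle of a dense locus, of equal length for all loci, held a median of 12 CpGs, against 3 for all autosomal loci, and its median GC content was 67.3% against 49.5%. The sequence CCGG, which reads the same on both strands, was found in 98.6% of these windows and in 96.1% of the windows of all autosomal loci. Windows more than 50% masked as repeats made up 2.9% of the dense loci and 14.6% of all.

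Dense sites were covered by a median of 24 to 53 reads per sample, and the read total over the 505 sites ranged from 22700 in corpus replicate 1 to 45828 in testis replicate 2. At this depth the dense sites were methylated at a low level in every sample. The mean over sites was 18.5, 20.9 and 18.9% in the 3 testis samples. It was 24.1, 23.3 and 21.3% in caput and 18.4, 21.2 and 19.98% in corpus. In cauda it was 20.2, 20.7 and 17.98%. All 3 caput samples were above all 3 testis samples, while corpus and cauda overlapped with testis. The caput difference was small under 2 alternatives, at 16.1% against 15.6% in testis over sites with at least 20 reads in every sample and at 25.9% against 24.8% from pooled reads. A few loci carried much of it. Without the 7 loci that held a site called in caput, a choice made on the outcome, the mean over the other 455 dense sites was 18.7% in testis and 20.02% in caput, and the samples overlapped. The median difference between caput and testis was 0 points over the dense sites and over all sites. The group means were 19.4% ± 1.29 (SD, n = 3) in testis, 22.9% ± 1.45 in caput, 19.8% ± 1.39 in corpus and 19.6% ± 1.45 in cauda. The other 13412 autosomal sites averaged 49.7% ± 0.588 in testis, 52.9% ± 1.39 in caput, 50.5% ± 1.26 in corpus and 49.7% ± 0.307 in cauda. In single samples the dense mean minus the mean of the other sites ranged from -31.4 to -28.7 points.

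The low average came from a majority of loci with little methylation and a minority of loci with intermediate or high levels. In 45 of the 69 dense loci the methylation level, computed from the reads summed over the locus, was below 10% in all 12 samples, against 1612 of the 8740 other autosomal loci (18.4%). Of these 45 loci, 44 were within 2 kb of a start site. They included loci near the start sites of Erbb4 and Flt1, which encode receptor tyrosine kinases, of Vangl2, a planar cell polarity gene, of Kpnb1, which encodes a nuclear import receptor, and of the transcription factor genes Npas3, Zic5, Zfhx3 and Foxp1, examples chosen after their values were seen. Over the 308 dense sites of the 45 loci, the share of methylated reads was 1.21% ± 0.302 (SD, n = 3) in testis, 1.502% ± 0.438 in caput, 1.16% ± 0.373 in corpus and 1.08% ± 0.578 in cauda. A single locus, at Gm26917 beside an 18S-related sequence described below, held much of this: without it the shares over 302 sites were 0.608% ± 0.127, 0.738% ± 0.17, 0.498% ± 0.0285 and 0.473% ± 0.157. Loci chosen for levels below 10% in all samples leave little room for differences between origins. From 78.6% to 89.9% of the sites had no methylated read in a given sample.

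Only 4 dense loci (5.8%) were above 90% in all 12 samples, against 1124 of the 8740 other autosomal loci (12.9%). They were in exons of Lbr, the lamin B receptor gene, Snrnp70, which encodes a protein of the U1 small nuclear ribonucleoprotein, and Dnmbp, and in an intron of the meiosis gene Mei1, all of them more than 2 kb from a start site and named after their values were seen. Their testis levels were 99.1% ± 1.54 (SD, n = 3), 97.7% ± 0.537, 97.8% ± 1.58 and 100% ± 0. A further 20 loci (29.0%) were in neither class, against 68.7% of the other loci.

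The level was lower with more neighbours up to 7 of them, with a small step up at 6, and higher again in the densest sites. In testis, autosomal sites with 0, 1, 2, 3 and 4 other table sites within 50 bp averaged 61.2, 48.3, 39.4, 28.1 and 19.4%. The 169 sites just inside the definition, with exactly 5 others, averaged 16.0%, and the 483 sites just outside it, with 4, averaged 19.4%. Further inside, the 138 sites with 6 others averaged 16.9% and the 67 sites with 7 averaged 2.32%, while the 131 sites with 8 or more, which lay in only 13 loci, averaged 35.3%.

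Caput spermatozoa were compared with testicular spermatozoa to find the dense sites whose methylation differed after the testis. By logistic regression on pooled reads, with adjusted p under 0.01 and a difference above 25 points, 30 of the 505 dense sites were called (5.94%), against 16.8% of all 14149 sites. Of them, 23 were higher in caput (11.5% of all sites were called higher) and 7 were lower (5.25% of all sites were called lower). Without caput replicate 1, 28 were called, against 11.9% of all sites. This test does not use the spread between replicates, and limma on single sites, which does, called 0 dense sites, with 55 at an unadjusted p under 0.05. It called only 0.346% of all sites, with 21.7% at an unadjusted p under 0.05. Among the 270 dense sites with at least 20 reads in every caput and testis sample, 7 were called (2.59%), against 17.02% of all sites under this minimum, and of the 7 only 1 was higher and 6 were lower. The share of dense sites called was also given by starting level. Below 10% in testis, 20 of 358 dense sites (5.59%) and 915 of 5484 other sites (16.7%) were called in caput. Between 10 and 90% in testis, 9 of 99 dense sites (9.09%) and 810 of 2527 other sites (32.1%) were called. Above 90% in testis, 1 of 48 dense sites (2.08%) and 588 of 5401 other sites (10.9%) were called. The dense share was thus lower in all 3 classes, although sites of a locus share reads and are not independent.

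The 30 called sites lay in 7 loci. The limma test on loci, which uses the spread between replicates, called 4 of 69 dense loci in caput (5.8%), against 8.98% of all 8809 autosomal loci. Cald1, Gm13146 and Gm9833 were higher, where 5.78% of all loci were called higher, and Susd1 was lower, where 3.2% of all were. Without caput replicate 1, no dense locus was called by limma and 3.04% of all loci were, with 10 dense loci (14.5%) and 18.5% of all loci at an unadjusted p under 0.05. With all samples these were 12 (17.4%) and 25.1%. The limma count was also 0 without testis replicate 2 and without testis replicate 3, against 3.18 and 3.21% of all loci, with 14 and 10 dense loci and 20.9 and 20.6% of all loci at an unadjusted p under 0.05. It was 2 (2.9%) without caput replicate 2 or without testis replicate 1, against 7.99 and 3.46% of all loci, so that calls fell over the whole table too. Logistic regression called 28 to 39 dense sites (5.54 to 7.72%) when single samples were left out, against 11.9 to 19.5% of all sites.

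Cald1 encodes caldesmon, an actin-binding protein. The locus, 7 sites in an exon at chr6:34755722-34755748 of GRCm38, was at 13.5, 1.86 and 2.18% in testis and 76.7, 75.3 and 88.4% in caput. The corpus samples were at 0, 10.3 and 20.4% and the cauda samples at 0.345, 0.662 and 1.52%, from 77 to 377 reads per sample. All 3 caput samples were far above every other sample. The log2 difference from testis was 6.25 (SE 1.16), with limma adjusted p = 0.0187 and all 3 samples higher. The adjusted p was 0.0503 without caput replicate 1, 0.0581 without testis replicate 2 and 0.0615 without testis replicate 3, and ranged from 0.00615 to 0.0615 over all alternatives, while the log2 difference ranged from 5.17 to 7.06. Susd1 encodes a sushi domain protein. Its 6 intronic sites at chr4:59360926-59360964 were at 48.5, 67.4 and 69.6% in testis and 8.19, 29.4 and 20.9% in caput. The corpus samples were at 45.2, 38.7 and 42.1% and the cauda samples at 64.5, 42.3 and 48.3%, from 423 to 811 reads per sample. All 3 caput samples were below every other sample. The log2 difference from testis was -2.85 (SE 0.58), with limma adjusted p = 0.0235 and all 3 samples lower. The adjusted p was 0.0531 without caput replicate 1, 0.0694 without testis replicate 2, 0.0747 without testis replicate 3 and 0.115 with only 2 groups in the fit, and ranged from 0.0165 to 0.115 over all alternatives, while the log2 difference ranged from -3.31 to -2.26.

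Gm13146 is annotated as a processed pseudogene. The 9 sites of its locus, all on the minus strand at chr4:147187792-147187827, lie 84 bp from its start and in annotated exon sequence. The testis samples were at 0, 7.17 and 1.94%, and the caput samples at 57.5, 43.6 and 10.6%. The corpus samples were at 12.5, 27.2 and 40.5% and the cauda samples at 10.1, 18.1 and 30.9%. Every epididymal sample was above every testis sample, yet the caput samples were spread over a wide range. The log2 difference from testis was 4.12 (SE 1.08) in caput, with limma adjusted p = 0.0483 and all 3 samples higher. It was 3.54 (SE 1.08) in corpus and 2.99 (SE 1.08) in cauda, with limma adjusted p = 0.254 and 1. The caput call was lost without any 1 of caput replicates 1 and 2 and testis replicates 1, 2 and 3, with adjusted p of 0.16, 0.105, 0.138, 0.0581 and 0.12, and also with a replicate block (0.0774), with a pseudo-percent of 5 (0.0525) and with only 2 groups in the fit (0.165). The adjusted p ranged from 0.0253 to 0.165 over all alternatives and the log2 difference from 2.92 to 5.12. By the test on pooled reads, 7 of its 9 sites were higher in caput, 2 in corpus and 2 in cauda.

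Gm9833, named after its values were seen, gave the smallest change of the 4 in points. Its 7 sites at chr3:10088268-10088298, in an exon 158 bp from the start site, were at 0, 0.548 and 0% in testis and 15.1, 11.2 and 10.6% in caput. In corpus they were at 1.3, 16.4 and 1.53%, and in cauda at 0, 2.36 and 1.31%. All 3 caput samples were above all testis samples, while 1 corpus sample reached the caput level. The caput log2 difference was 3.70 (SE 0.81), with limma adjusted p = 0.0285 and all 3 samples higher, and the adjusted p ranged from 0.0179 to 0.0926 and the log2 difference from 1.91 to 3.91 over alternatives that were added after seeing the data. The call was lost without any 1 of caput replicates 1 and 2 and testis replicates 1, 2 and 3, with adjusted p of 0.0926, 0.0531, 0.0826, 0.0628 and 0.0841, and at a threshold of 0.01 or with a difference above 25 points required. The middle 50 bp of this locus occur at 2 places on the assembled chromosomes, so reads of the copies may not be told apart and these values are uncertain. The middle 50 bp of the other 68 dense loci were found once.

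The remaining sites called in caput were 1 of 9 at Gm13238, 1 of 6 at a Gm26917 locus beside an 18S-related sequence, described below, 1 of 6 at Aktip and 7 at a locus that the naming rule leaves out. Gm13238, a processed pseudogene near chr4:145837096-145837135, was at 15.0, 11.2 and 3.33% in testis and 43.5, 30.2 and 10.9% in caput, and the groups overlapped. Its corpus samples were at 12.8, 14.5 and 11.2% and its cauda samples at 0.717, 4.22 and 9.84%. An exonic locus of Aktip at chr8:91171104-91171139 was at 94.2, 97.1 and 87.2% in testis and 85.0, 88.4 and 52.6% in caput. Its corpus samples were at 47.9, 92.3 and 91.4%, so that 1 sample in each of these segments was far below the others. Neither locus passed limma, with adjusted p = 0.249 for Gm13238 and 0.341 for Aktip in caput. These loci were named after their values were seen.

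In corpus against testis, 4 dense sites were called by logistic regression (0.792%), against 3.96% of all sites, and all were higher (2.69% of all sites were called higher). They were 2 sites at Gm13146 and 2 at the same Gm26917 locus beside the 18S-related sequence. The corpus count and its direction depended on single samples. Without corpus replicate 1 it was 13 (10 higher, 3 lower), without corpus replicate 2 it was 16 (9 higher, 7 lower), without testis replicate 1 it was 17 (11 higher, 6 lower) and without testis replicate 2 it was 14, all higher. These were 2.57, 3.17, 3.37 and 2.77% of the dense sites, against 4.48, 4.83, 4.11 and 4.19% of all sites. Limma called 0 of 69 dense loci in corpus, against 0.341% of all loci, with 7 dense loci (10.1%) and 11.2% of all at an unadjusted p under 0.05. In cauda, 2 dense sites were called by logistic regression (0.396%), against 0.233% of all sites, both higher (0.0989% of all sites were called higher) and both at Gm13146. Without testis replicate 1 there were 8 (1.58%), against 0.424% of all sites, and without cauda replicate 3 there was 1 (0.198%), against 0.233%. Limma called 0 dense loci in cauda, against 0.0681% of all, with 3 (4.35%) and 3.98% of all at an unadjusted p under 0.05. The 3 comparisons share the testis samples.

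The sequences of the 3 loci with the clearest change in caput under the naming rule are shown to place the measured CpGs, which are in capitals, with 20 bases on either side of the outermost sites. Each is the plus strand of GRCm38. Cald1 is at chr6:34755702-34755769, Gm13146 at chr4:147187772-147187848 and Susd1 at chr4:59360906-59360985.
Cald1: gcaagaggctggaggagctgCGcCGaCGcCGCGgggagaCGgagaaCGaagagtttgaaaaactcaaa
Gm13146: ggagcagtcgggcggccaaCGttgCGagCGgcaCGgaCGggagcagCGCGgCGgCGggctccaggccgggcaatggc
Susd1: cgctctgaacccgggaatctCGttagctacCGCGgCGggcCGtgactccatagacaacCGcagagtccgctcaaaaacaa
In each of the 3 loci every measured CpG moved in the same direction in caput. The differences between caput and testis means were 64.9 to 79.0 points over the 7 sites of Cald1, 16.8 to 47.4 points over the 9 sites of Gm13146 and -45.4 to -35.6 points over the 6 sites of Susd1.

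Agreement between neighbours was measured over the 1734 pairs of table sites within 50 bp in which at least 1 site was dense. Of these, 1540 pairs were on the same strand and can be covered by the same reads, 176 were different CpGs on opposite strands, and 18 were both cytosines of 1 CpG. On the same strand, the median absolute difference in methylation was between 0 and 0.507 points in every sample, and the mean over pairs and samples was 4.77 points. Differences above 25 points made up 4.1% of these comparisons, against 3.7% for the 6648 same-strand pairs without a dense site, whose mean difference was 4.63 points. Across the same-strand pairs, Pearson's r ranged from 0.891 in corpus replicate 3 to 0.936 in testis replicate 2. It was higher for the other pairs in every sample, at 0.947 to 0.976. These values describe pairs that share loci, samples and often reads, and many sit at 0%.

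Among the 357 same-strand dense pairs whose mean testis level was between 10 and 90%, where there is room to differ, sample medians were 3.94 to 6.56 points. The mean absolute difference was 11.3 points at distances of 1 to 10 bp, 12.3 at 11 to 20 bp, 16.8 at 21 to 30 bp and 19.01 at 31 to 50 bp. Neighbours farther apart therefore differed more, as did the other same-strand pairs of this class, at 11.4, 12.3, 14.8 and 23.9 points.

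On opposite strands, the 176 dense pairs of different CpGs differed more, with sample medians of 6.9 to 16.7 points and a mean of 19.7 points. The 53 other opposite-strand pairs had sample medians of 1.9 to 10.97 points and a mean of 9.25 points. The dense pairs came from only 9 loci, and their highest median belonged to corpus replicate 1, the sample with the fewest reads. The median difference over all opposite-strand dense pairs, averaged over samples, was smaller without the loci near the 18S-related sequence, with values given at the end. At the Gm26917 locus at chr17:39844850-39844893, 1 of the loci beside the 18S-related sequence whose reads may come from several copies, the strands stood apart: the 4 plus-strand sites averaged 21.9 to 32.6% in testis, against 77.5 to 95.2% for the 6 minus-strand sites. By contrast, the 7 CpGs of the Sfi1 locus with both cytosines in the table averaged 80.5 to 95.5% on the plus strand and 83.3 to 95.2% on the minus strand in testis. In corpus replicate 1, however, the plus strand of these CpGs was at 50 to 84.6%, from 12 to 16 reads per site, and the minus strand at 78.6 to 97.6%. The Sfi1 locus had 462 to 5542 reads per sample over 17 sites, and whether these come from several copies was not tested.

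In caput and corpus, same-strand neighbours that differed from testis did so in the same direction. Of the 116 same-strand dense pairs in which at least 1 site differed by more than 25 points between the caput and testis means, both sites differed in the same direction in 116, against 1134 of 1153 other pairs. The 116 pairs came from 8 loci. In corpus both sites differed in the same direction in 50 of 50 such pairs, from 4 loci, against 335 of 350 other pairs, but on opposite strands in 7 of 13 dense pairs, from 2 loci, and in 2 of 3 other pairs. In cauda, where few sites differed, this held for 10 of 16 pairs from 2 loci, against 28 of 33 other pairs. Both sites were called in 78 of the 110 same-strand dense pairs with at least 1 site called in caput, against 783 of 1100 other pairs. In corpus this held for 2 of 24 dense and 152 of 351 other pairs, and in cauda for 1 of 15 dense and 4 of 16 other pairs.

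The sites of a locus had nearly equal levels mostly where all levels were very low or very high. In testis, the highest and the lowest dense site of a locus lay within 10 points of each other in 58 of 69 loci and more than 50 points apart in 5. In caput, corpus and cauda, 49, 52 and 58 loci were within 10 points. Of the 20 loci in neither level class, only 9 were within 10 points in testis, and 2, 4 and 9 were in caput, corpus and cauda, while 5 were more than 50 points apart in testis. Against the median of the other dense sites of their locus, 11 sites in 5 loci differed by more than 25 points in testis, and all 11 were lower. For 4 of them, the plus-strand sites of the Gm26917 locus, the other dense sites on the same strand lay within 25 points, 6 were more than 25 points from those of their strand and 1 was alone on its strand. Of the 11 sites, 2 lay inside a CCGG of the reference, the sequence at which the DNA was cut, and across all dense sites 5 of 505 did. Whether the level read at a cut site is that of the sperm DNA was not tested.

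The widest range was in an unnamed locus between genes at chr1:94770971-94771006, 26077 bp from the nearest start site and wholly masked as a repeat. Its first 5 sites averaged 90.7 to 100% in testis, while the last, at position 94771006 and inside a CCGG, was at 0% in all 3 testis samples, 0 of 115 reads, which allows up to 2.61%. In the epididymis that site was at 6.06, 7.89 and 8.7% in the caput samples. The corpus values were 7.14, 5.56 and 22.5% and the cauda values 8.62, 19.4 and 8.57%. As the locus was chosen for its range in testis, where this site was at 0%, the other groups could not be lower. It was covered by 14 to 58 reads per sample. The level of the locus as a whole differed between origins by less than the largest spread between replicates, at 81.6% ± 0.474 (SD, n = 3) in testis, 82.0% ± 2.81 in caput, 83.0% ± 3.71 in corpus and 81.9% ± 1.37 in cauda. A comparable step was found near Gm18604, a locus at chr17:36231394-36231478 that was 1925 bp from the start site. There the minus-strand site at 36231449 had no methylated read in any of the 12 samples, 0 of 340 reads, which allows up to 0.882% by counting error, while the other dense sites on its strand had a median of 59.4% in testis.

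The sequences of both loci are shown because they carry the widest ranges that lie outside untranslated regions, on the plus strand of GRCm38 with the measured CpGs in capitals. The first is at chr1:94770951-94771027 and the second at chr17:36231374-36231499.
chr1 locus: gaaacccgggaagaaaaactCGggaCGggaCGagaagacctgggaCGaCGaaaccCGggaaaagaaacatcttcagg
Gm18604: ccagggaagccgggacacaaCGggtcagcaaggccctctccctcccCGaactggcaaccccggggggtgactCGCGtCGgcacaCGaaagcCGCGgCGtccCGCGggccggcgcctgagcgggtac
In the first, the unmethylated site is the last pair of capitals, 7 bp from a neighbour that averaged 100% in testis.

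The locus with the most sites was 3110070M22Rik, 21 sites at chr13:119488316-119488453 that also lie in Tmem267 and overlap an untranslated region. It was at 69.9% ± 9.48 (SD, n = 3) in testis, 80.03% ± 2.67 in caput, 81.1% ± 6.76 in corpus and 78.2% ± 6.46 in cauda, and no epididymal group was separate from testis. Its site at 119488436 was at 0% in all 3 testis samples, 0 of 141 reads, which allows up to 2.13%, and at most at 5% in any sample. Of the other minus-strand sites, that at 119488316, inside a CCGG, averaged 7.62% in testis and the rest 59.4 to 94.6%. The Sfi1 locus, 17 sites at chr11:3193437-3193480 at a start site of Sfi1 and inside Drg1, was at 88.2% ± 2.17 in testis and 89.8% ± 5.29 in caput. Gm23935, annotated as a microRNA gene inside an intron of Zc3h7a, held 10 sites at chr16:11144062-11144100. These were at 24.1, 23.1 and 20.8% in testis and 28.0, 36.4 and 29.8% in caput, so that all caput samples were higher, but the limma adjusted p was 0.189.

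The loci whose testis level was nearest 50%, with every sample between 20 and 80%, were Gm42418 (chr17:39846204-39846297), Gm18604 and, lower, Gm23935. Gm18604 was at 41.0% ± 8.4 (SD, n = 3) in testis and 54.8% ± 8.34 in caput, and the groups overlapped. Gm42418 was at 48.0% ± 16.4 in testis and 67.1% ± 7.53 in caput, again with overlap. It belongs to a group of 6 loci, 4 of them at Gm26917, with 49 dense sites that lie within 3 kb of Rn18s-rs5, a copy related to the 18S ribosomal RNA gene at chr17:39846354-39848202. Because ribosomal RNA genes are present in many copies, the reads of these loci may come from several places and their values are uncertain. Over the 49 sites the testis samples averaged 24.98, 45.6 and 34.4%, the caput samples 42.5, 43.9 and 37.2%, the corpus samples 34.7, 42.0 and 31.7% and the cauda samples 40.04, 44.7 and 27.8%. By this mean over sites the testis samples alone spanned the range of all the others. From pooled reads they did not: the testis samples were at 14.9, 35.5 and 21.8% and the caput samples at 40.2, 44.3 and 32.0%, with means of 24.1 and 38.8%, and the 2 groups still overlapped. Without these 6 loci the mean over dense sites was 17.8, 18.2 and 17.3% in testis and 22.1, 21.1 and 19.6% in caput.

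Of 244 developmental regulators, 80 had a table site within 2 kb of a start site and 1, Foxp1, had a dense locus. This was 1 of 69 dense loci (1.45%), where 120 of all 8809 autosomal loci (1.36%) lay near a gene of that list. Its 6 sites at chr6:99522939-99522963 had no methylated read in any testis sample, 0 of 925 reads, which allows up to 0.324%, and reached 2.92% at most in the others. None of 41 imprinted genes, 63 germline and sperm genes and 79 ribosomal protein genes had a dense locus within 2 kb, and 6, 8 and 9 of them had a table site there. Of all autosomal loci only 0.0681, 0.102 and 0.102% lay near these lists, so that a count of 0 among 69 loci says little. Of the genes that mark other cells, none of 34 for epididymal epithelium and none of 18 for leukocytes had one, and 3 and 0 had any table site within that distance, near 0.0681 and 0% of all autosomal loci. The part of such cells in the differences above was not tested. A dense locus did lie in an exon of Epcam, an epithelial adhesion gene on that list, at chr17:87640484-87640517, which was named after its values were seen. It was at 83.7, 96.2 and 85.1% in testis and 92.7, 74.5 and 84.5% in caput. In corpus it was at 100, 77.9 and 54.4% and in cauda at 81.7, 74.0 and 67.2%, so that only the cauda samples were all below testis. Limma did not call it in any segment, with adjusted p of 0.906 in caput, 1 in corpus and 1 in cauda.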

How the data were processed

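RRBS libraries of 12 samples were assigned to 4 origins from their labels. Per the labels' processing notes and the methods of the study, the authors trimmed reads with Trim Galore 0.4.1, aligned them to GRCm38 with Bismark 0.16.1 and compared groups in methylKit. Their deposited table gives the count of all, methylated and unmethylated reads per CpG site and sample, without normalization. All 36 per-sample columns were used. The table held no site with fewer than 10 reads in any sample, and all 14149 sites fell on a CpG of GRCm38. The authors' deposited lists hold their own methylation differences, p-values and q-values and were not used. The members and lists were chosen with earlier results of these data known.

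Read totals over the dense sites were 22700 to 45828 per sample. Sites were tested on pooled reads by a likelihood-ratio test in logistic regression, with Benjamini-Hochberg adjustment over 14149 sites, adjusted p under 0.01 and a difference above 25 points (Python 3.11.15, scipy 1.17.1). Loci were tested in limma 3.58.1 (R 4.3.3) on log2((methylated percent + 1)/(unmethylated percent + 1)) of summed reads, all 12 samples in 1 fit, adjusted over 8809 loci at 0.05. Reads are not independent molecules, so limits from counts cover counting error only. Genes and untranslated regions came from GENCODE M21, sequences from RefSeq's GRCm38.

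Loci were named, with chromosome 18 left out, if they had the largest rises or falls in a segment with all samples of the groups apart and at least 50% of their sites called, the most sites, the widest range of sites in testis, a testis level nearest 50% with all samples between 20 and 80%, or a start site of a listed gene within 2 kb, or if they overlapped regions the study lists. Lbr, Snrnp70, Dnmbp, Mei1, Gm9833, Gm13238, Aktip, Epcam and the examples of low loci save Foxp1 lie outside this rule and were named after their values were seen. Loci on chromosome 18 are not reported here by name but are in all counts.

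Alternatives were other thresholds, coverage minimums, site definitions, summed strands, a replicate block, limma per site, another pseudo-percent, only 2 groups in the fit, another chain distance, pooled reads, correlations, restricted pairs, and leaving out each sample. Both tests were tested on simulated data.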

Additional observations from a re-analysis of the deposited data

How the results depend on the processing

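By logistic regression, the caput count of 30 dense sites was 7 of 270 with at least 20 reads in every sample (17.02% of all). Of these, 6 were lower. The corpus count of 4 was 1 above 40 points (0.495% of all) and 2 of 245 with at least 20 reads (3% of all). The cauda count of 2 was 0 above 40 points (0.0212% of all) and 0 with at least 20 reads (0.159% of all). In caput, corpus and cauda, 184, 54 and 4 of 1999 sites with at least 3 others were called (16.8, 3.96 and 0.233% of all). With at least 8, these were 8, 2 and 2 of 131 (same shares of all). Leaving out single samples gave 28 to 39, 5 to 17 and 1 to 8 sites. The shares of all were 11.9 to 19.5, 3.94 to 4.83 and 0.233 to 0.445%. Limma on single sites called 0, 0 and 0 (0.346, 0.0141 and 0% of all). At an unadjusted p under 0.05 it had 55, 31 and 21 (21.7, 9.7 and 3.79% of all).

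The limma count of 4 dense loci in caput was 0 at adjusted p under 0.01 (0.795% of all loci, and 12 at an unadjusted p under 0.05) and 2 (2.9%) with only 2 groups in the fit (2.2% of all), and ranged from 0 to 5 when single samples were left out (3.04 to 10.5% of all loci). It ranged from 0 to 0 in corpus, with 5 to 8 at an unadjusted p under 0.05 (8.71 to 10.9% of all), and in cauda, where it was 1 (1.45%) with only 2 groups in the fit (0.25% of all). Of 495 values of single named loci under an alternative, 450 kept their direction and side of the threshold, 25 were no longer past it and 20 reversed. All 20 came from leaving out a sample, and none was called.

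Reversed log2 differences follow, with the value from all samples and the range when single samples were left out. In caput, Sfi1 was at 0.309, from -0.0995 without caput replicate 1 to 0.700, the chr1 locus at 0.0440, from -0.0680 without caput replicate 3 to 0.185, and Epcam at -0.560, from -1.08 to 0.0945 without testis replicate 2. In corpus, Cald1 was at 0.365, from -0.607 without corpus replicate 3 to 1.76, and also reversed without corpus replicate 2 (-0.0625) and testis replicates 2 (-0.0817) and 3 (-0.00181). Gm18604 was at 0.137, from -0.141 without testis replicate 1 to 0.392, and at -0.117 without corpus replicate 3. Epcam was at -0.125, from -2.01 to 1.20 without corpus replicate 3, at 0.435 without corpus replicate 2 and 0.529 without testis replicate 2. Gm13238 was at 0.583, from -0.0325 without testis replicate 3 to 1.004. In cauda, Sfi1 was at -0.112, from -0.264 to 0.0888 without cauda replicate 3, and at 0.00528 without testis replicate 3. Gm42418 was at 0.515, from -0.00612 without testis replicate 1 to 0.952, and the chr1 locus at 0.0260, from -0.0396 without cauda replicate 3 to 0.0874. Gm18604 was at -0.0899, from -0.379 to 0.412 without cauda replicate 3, and at 0.118 without testis replicate 2. Aktip was at -0.442, from -0.987 to 0.0244 without testis replicate 2.

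The mean level of the dense sites over all 12 samples, 20.5%, was 24.1% from pooled reads, 25.1% with at least 3 others, 37.7% with at least 8 and 15.6% with at least 20 reads, and ranged from 20.1 to 20.7% when single samples were left out. The median same-strand difference, averaged over samples, was 0.0755 points. It was 0.439 with at least 20 reads, 1.29 with at least 50 and 5.3 for pairs between 10 and 90% in testis, and ranged from 0.0363 to 0.0824 when single samples were left out. As correlations across these pairs, averaged over samples, Spearman's rho was 0.84 and Pearson's r 0.922. The opposite-strand difference, with both cytosines of a CpG counted as a pair, was 8.63 points. It was 13.6 for pairs between 10 and 90% and ranged from 7.89 to 8.84 when single samples were left out.

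An alternative chosen after seeing the data left out the 6 loci near the 18S-related sequence: the mean level was then 18.6%, the opposite-strand difference 6.08 points and the corpus count 2. Leaving out single samples for the level and the neighbour differences, and all alternatives at Gm9833, Gm13238, Aktip and Epcam, were also chosen after seeing the data.

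The labels of the groups share replicate numbers. With a replicate block, the site counts were 30, 4 and 2 and the locus counts 3, 0 and 0, Gm13146 being lost in caput (adjusted p 0.0774). In 18 pairs of samples with the same number, r between their deviations from the group means was -0.0875 to 0.0501 over all autosomal loci and -0.291 to 0.248 over the dense loci, where it was above 0.1 in 3. Over all loci a sample correlated best with its own number in another group in 17 of 36 comparisons, over dense loci in 6 of 36. The lowest coverage of a site was 10 reads, and how small a difference this depth can show was not tested.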
